A study of Saccharomyces cerevisiae with 312 samples.

Results

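The strains examined here carry altered alleles of genes that encode subunits of translation initiation factor eIF2 and of its exchange factor eIF2B in budding yeast. They were chosen by gene symbol in the array annotation, as SUI2, SUI3 and GCD11 of eIF2 and GCD1, GCD2, GCD6 and GCD7 of eIF2B. All 7 were measured, among 5093 strains with any value. Of these 7, 5 had an array feature with values on at least 80% of arrays, as did 4125 strains in all, while GCD11 and GCD7 did not and are given from features on at least 50% of arrays.

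In these genetic interaction mapping screens, a query mutation was crossed into a pool of barcoded mutants. The haploid double mutants, from a BY4742/BY4741 background, grew together for 18 generations under G418 and nourseothricin, the drugs that select both markers. Each array compared barcodes of a query population, labelled with Cy3, with those of a reference population in Cy5, which was a mix of deletions on 252 arrays and a single deletion of YEL068C or YPR014C on 59 and 1 arrays. The 312 arrays made up 304 screens, with 139 deletions, 11 DAMP alleles (destabilised transcripts) and 4 TETO2 alleles (a repressible promoter) as queries. Tests were run for the 140 queries screened 2 or more times. The labels do not state which allele a pool strain carries, and all 7 strains are known here only by gene. Nor do they say if repeat screens came from separate cultures, and p-values therefore measure a spread that may be technical.

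eIF2 is the GTP-binding factor that brings the initiator methionyl-tRNA to the small ribosomal subunit. SUI2 encodes its α subunit, SUI3 its β subunit and GCD11 its γ subunit, which binds the nucleotide. eIF2B recharges eIF2 with GTP: GCD6 (ε) is the catalytic subunit and pairs with GCD1 (γ), while GCD2 (δ) and GCD7 (β) form the regulatory part together with GCN3 (α). In amino acid starvation the kinase GCN2 phosphorylates the α subunit of eIF2, which then inhibits eIF2B, slows general initiation and raises translation of the transcription factor GCN4. This response is called general amino acid control.

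Every value below is a log2 ratio of a strain's level in the query over that in the reference population, relative to the median strain of the array, as a mean ± SD over screens (n = 2 unless stated). A negative value means fewer cells of that strain in the query population. "Lower" and "higher" are used of pairs whose adjusted p was below 0.05 and whose log2 value was 1 or more in size, where p comes from limma with the variance of a strain pooled over all queries and Benjamini-Hochberg adjustment over all pairs. Bulk barcode levels cannot tell fewer surviving double mutants from slower growth of the same number.

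The strain labels were checked by linkage, since a strain altered close to the query locus is lost when both markers must come together in 1 spore. Over all strains the median was -2.64 at 11 to 15 genes from the query and -1.66 at 21 to 25 genes. The GCD6 strain had -3.90 and -2.92 in the PCF11 query, 16 genes away. The GCD11 strain had -2.83 in the EDC2 query and -3.24 in the YER010C query, at 11 and 18 genes, with 1 screen measured in each. All 4 of these values were far below 0. In the CAJ1 query, 27 genes away, GCD11 had -0.23 and 0.55, where 96.4% of strains at 26 to 50 genes were lower than its mean of 0.16.

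The GCD1 strain was not depleted beside its labelled locus. It had -1.54 and 0.80 in the MOD5 query, 14 genes away, where 98.0% of strains at 11 to 15 genes were lower than its mean of -0.37. In the IRC13 query, 24 genes away, it had -0.33 and 0.34, and 97.7% of strains at 21 to 25 genes were lower. The linkage values go against the label, so results of this strain are those of the strain labelled GCD1. The SUI3 strain averaged -0.91 ± 0.43 (n = 4) in the PUS1 query at 25 genes, inside the range of its unlinked queries, whose 5th percentile was -2.27. Of strains at 21 to 25 genes, 85.6% were lower than that mean. SUI3 averaged -1.92 in the CSM4 query at 36 genes and 0.24 in the RPL7B query at 38 genes. Of strains at 26 to 50 genes, 13.8% and 97.1% were lower than these means. SUI2, GCD2 and GCD7 had no query within 25 genes. At 51 to 100 genes all 4 values of GCD2 were below 0, from -0.85 to -0.15, and the 2 values of SUI2 were 0.93 and 1.56, where 98.1% and 99.7% of strains in the same distance bands were lower.

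**Figure D1:**
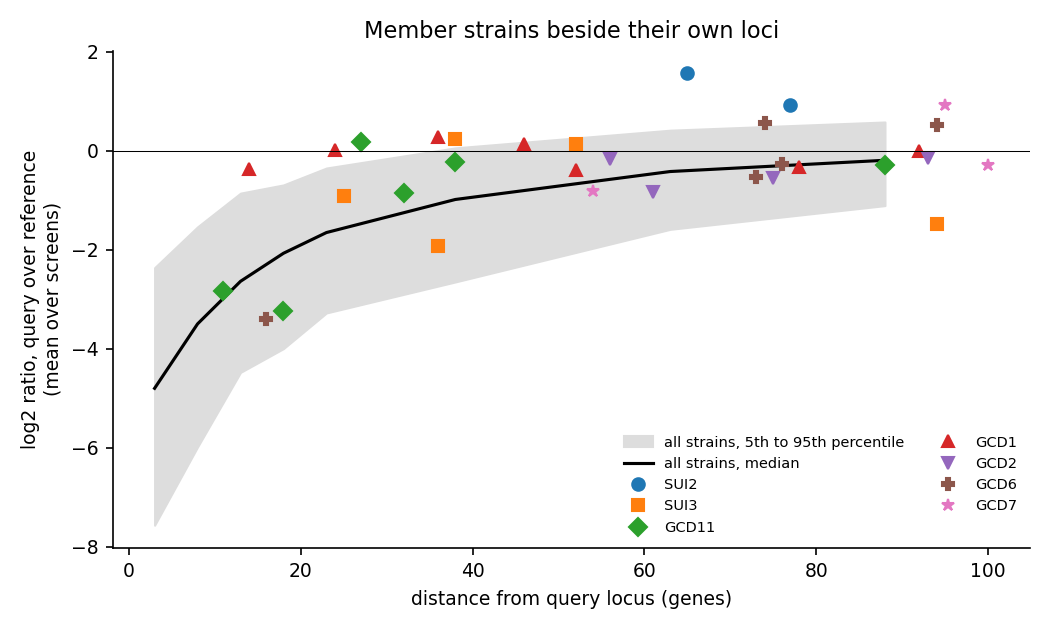
Log2 ratio (vertical axis, mean over screens) against the distance of the strain's gene from the query locus in genes (horizontal axis). The line and grey band are the median and the 5th to 95th percentile of all strains, and symbols are single queries of the 7 strains. GCD6 and GCD11 lie among the depleted strains within 20 genes, while GCD1 lies above the band at 14 and 24 genes.

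Most of the 7 strains had 2 array features, and their agreement across arrays bears on precision. The features correlated with r = 0.93 for SUI3 (298 arrays), 0.89 for SUI2 (246), 0.87 for GCD6 (308), 0.82 for GCD11 (164) and 0.60 for GCD2 (305), against a median of 0.74 over 2483 strains. SUI2 rests on 1 feature with values on 284 arrays, since its other one fell just outside the filter with 247. GCD1 likewise rests on 1 feature, on 301 arrays. GCD7 was measured by 1 feature on 168 arrays.

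The 3 strains of eIF2 had a larger SD between queries than the 4 of eIF2B, given here as a description. Across unlinked queries it was 1.76 for SUI2 (150 queries), 1.12 for SUI3 (149) and 1.16 for GCD11 (139). It was 0.51 for GCD1 (147), 0.30 for GCD2 (150), 0.49 for GCD6 (149) and 1.01 for GCD7 (114). The median over all 4125 strains was 0.35, and 98.8% of strains had a smaller SD than SUI2, while 40.2% had a smaller one than GCD2. Part of this spread is between screens of 1 query, with a residual SD of 1.39 for SUI2 and 0.26 for GCD2.

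Among the 5 strains with well-covered features, 31 of 642 tested pairs (4.83%) were lower and 10 (1.56%) were higher, in 29 queries. Over all strains the shares were 2.37% lower and 1.24% higher, 3.61% in either direction. With the reference pool as a term in the fit, 31 pairs of the 5 strains were lower and 15 higher, where 2.34% and 1.53% of all pairs were. SUI3 had the most calls, 14 lower and 8 higher of 131. SUI2 had 8 lower and 2 higher of 115. GCD1, GCD2 and GCD6 had 4 of 124, 1 of 136 and 4 of 136, all of them lower. Leaving out 1 screen of each query ended many single calls, and those in which the remaining screen was near 0 are named below. Together SUI2 and SUI3 were called in 13.0% of pairs, and GCD1, GCD2 and GCD6 in 2.27%, below the share of all strains. In the fit with features on at least 50% of arrays, GCD11 had 9 lower and 5 higher calls of 89, and GCD7 had 3 and 3 of 46, where the shares over all strains were 2.4% lower, 1.4% higher and 3.79% in either direction.

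**Figure D2:**
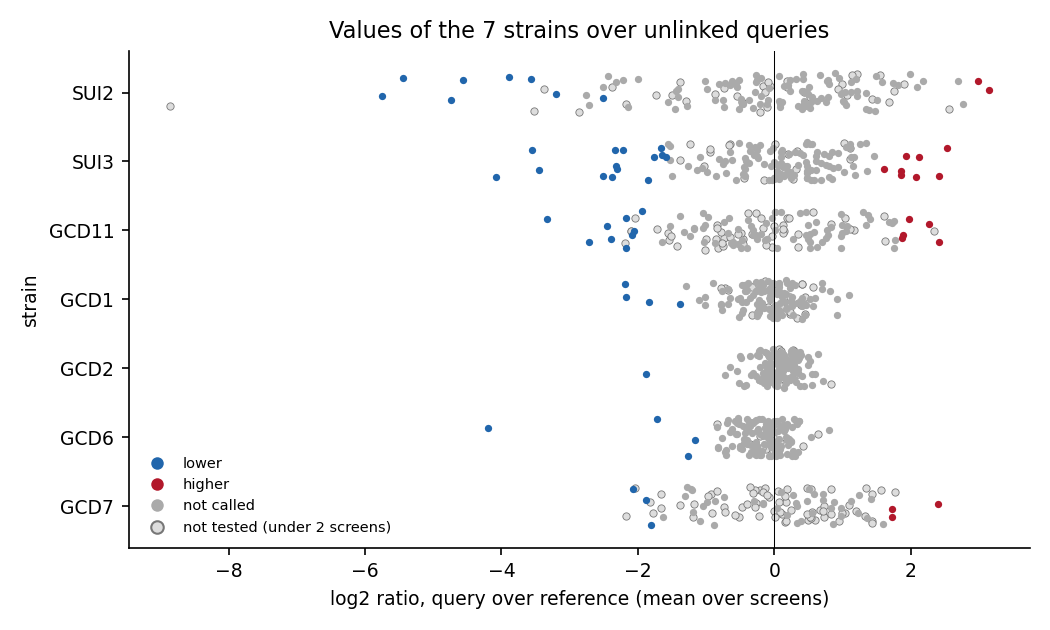
Log2 ratio (horizontal axis, mean over screens) of each of the 7 strains (rows) in every unlinked query, 1 point per query. Blue and red points are lower and higher calls, grey points passed no threshold, and pale points had fewer than 2 screens. SUI2 reaches -8.86, in 1 screen of the ADE4 query, while GCD2 stays between -1.88 and 0.83.

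SUI2 and SUI3, the α and β subunits, were lower together in 4 queries. Of 110 queries tested in both strains, 8 were lower for SUI2 and 12 for SUI3, so the 4 shared ones are 50.0% and 33.3% of each. How often other pairs of strains share lower queries was not determined. In the RPN4 query, which lacks the activator of proteasome genes, SUI2 had -7.40 and -4.10 and SUI3 had -5.56 and -2.59 (-5.75 ± 2.34 with adjusted p = 2.71e-06, and -4.08 ± 2.10 with 1.52e-10). Many strains were low in that query: SUI2 ranked 90 and SUI3 181 from the lowest of 3943. In the CAJ1 query (a J-domain chaperone) SUI2 had -5.21 and -4.28 and SUI3 -2.80 and -2.22, ranks 12 and 84 of 3957. These are -4.74 ± 0.66 (adjusted p = 0.000188) and -2.51 ± 0.41 (0.000196), and all screens of both strains were far below 0.

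The other shared queries were MAK3 and NPR3. In the MAK3 query, the catalytic subunit of an N-terminal acetyltransferase, SUI2 had -5.13, -1.35 and -3.15 (n = 3, adjusted p = 0.00343) and SUI3 had -3.25, -0.73 and -1.29 (n = 3, adjusted p = 0.00223). No screen of either strain was above 0, and the same screen was lowest in both. SUI2 ranked 91 and SUI3 227 from the lowest of 3982 strains in that query. NPR3 is part of a complex that restrains the growth kinase complex TORC1 when amino acids run short. In its query SUI2 had -4.83 and -2.32 (adjusted p = 0.0101) and SUI3 had -4.03 and -2.86 (adjusted p = 7.09e-08), in a query where 11.8% of 4038 strains were lower. GCD1 was lower there too, as given below. The means of GCD2, GCD6, GCD11 and GCD7 there were 0.13, 0.26, -0.39 and 0.88, and none of these was called. CAJ1, NPR3 and ADE4, in whose query SUI3 was also lower, used the same pair of reference pools. With the reference pool as a term in the fit these values stayed at -4.62 and -3.45 for SUI2 and at -2.11, -3.05 and -1.90 for SUI3, all of them still lower. Over the 6 queries of that pool pair SUI2 averaged -2.85 ± 3.64, against -0.09 ± 1.57 in 144 others. SUI3 averaged -1.39 ± 1.585 there, against 0.01 ± 1.07 in 143 others. Each strain was below 0 in 5 of the 6.

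Both strains were higher in the NOP1 and TRM1 queries. NOP1 is the methyltransferase of box C/D snoRNPs, and TRM1 is a tRNA guanine methyltransferase. In the NOP1 query 4.71% of 3993 strains were higher. In the NOP1 query SUI2 had 2.78 and 3.20 (adjusted p = 0.047) and SUI3 had 2.09 and 2.14 (adjusted p = 0.00282). In the TRM1 query SUI2 had 3.84 and 2.45, rank 2 from the highest of 3911 strains, and SUI3 had 2.71 and 2.12, rank 27 (adjusted p = 0.032 and 0.000385). All 8 of these values exceeded 2. SUI2 in NOP1 lay close to the threshold and passed it no longer with all arrays in their deposited sign (adjusted p = 0.0661).

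SUI3 was also higher in the NOP56 and TRM112 queries. It had 2.34 and 2.72 in the NOP56 query, another box C/D snoRNP protein (adjusted p = 0.000167). In the TRM112 query, the common partner of several methyltransferases, it had 1.82 and 2.34 (adjusted p = 0.00351), where SUI2 had 0.40 and 1.85 (adjusted p = 0.715). The means of GCD1, GCD2, GCD6 and GCD11 in that query were -0.07, 0.56, -0.09 and 0.61, none of them called. GCD7 had 1 screen there, at 1.77. After RPN4 the lowest query of SUI3 was UBP6, a deubiquitinase of the proteasome, at -3.77 and -3.34 (adjusted p = 2.65e-08). SUI2 had -2.59 and -2.28 there, on the same side in both screens, and was not called (adjusted p = 0.149). The larger screen-to-screen spread of SUI2 raises the size it needs to pass.

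SUI2 was lower in 4 queries in which SUI3 was not called lower, namely RNT1, RAT1, SXM1 and PIN4. In the RNT1 query (RNase III) it had -5.24 and -3.89 (adjusted p = 0.000377). In the RAT1 query, a nuclear exonuclease, it had -10.65 and -0.23, so the mean of -5.44 ± 7.37 rests on 1 screen, and without it the value was -0.23 (adjusted p = 1). In the SXM1 query, a nuclear import receptor, it had -4.02, -2.08 and -1.45 (-2.52 ± 1.34, n = 3, adjusted p = 0.0375), and with the reference pool as a term it was not called (-1.60, adjusted p = 0.243).

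**Figure D3:**
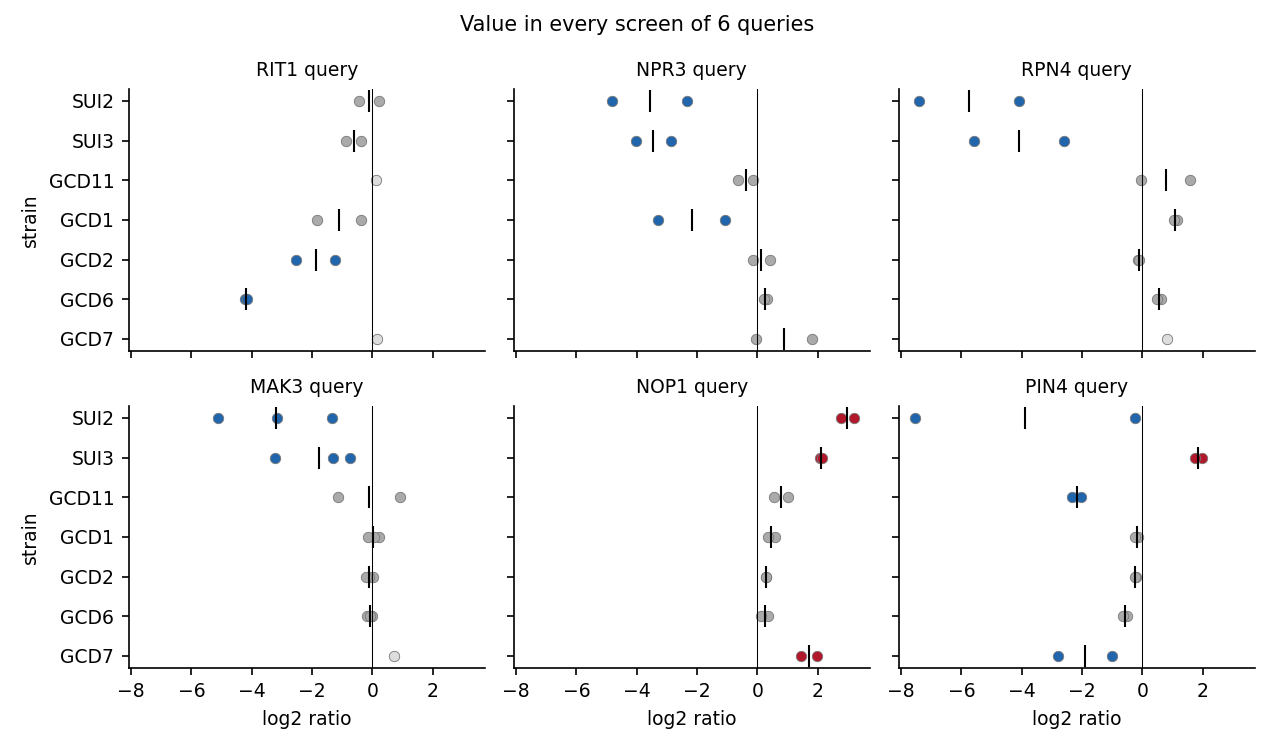
Log2 ratio (horizontal axes) in every screen of 6 queries for each of the 7 strains (rows), with 1 point per screen and a tick at the mean. Blue and red points belong to lower and higher pairs, and grey ones to pairs that passed no threshold or had fewer than 2 screens. SUI2 and SUI3 move together in NPR3, RPN4, MAK3 and NOP1 but not in PIN4, and GCD6 and GCD2 are low in RIT1.

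The PIN4 query separated the members. PIN4 acts in cell cycle progression and the DNA damage response. SUI2 had -0.23 and -7.54 (adjusted p = 0.00394), a mean that rests on 1 screen, and GCD11 had -2.02 and -2.32 (adjusted p = 0.0157). GCD7 had -0.99 and -2.78 (adjusted p = 0.0265), while SUI3 had 1.98 and 1.74 (adjusted p = 0.0123). GCD1, GCD2 and GCD6 had means of -0.18, -0.22 and -0.57 and were not called. PIN4 thus had 4 called members, more than any other query, with 1 of them in the opposite direction, in a query where 10.1% of all well-covered strains were called. After subtraction of the pool median 2 of these calls ended, those of GCD11 (-0.23, adjusted p = 1) and GCD7 (-0.61, adjusted p = 0.691).

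The largest effect in eIF2B was that of GCD6, the catalytic subunit, in the RIT1 query. RIT1 encodes the enzyme that adds a ribosyl phosphate to initiator tRNA and so keeps it out of elongation. GCD6 had -4.23 and -4.16, a mean of -4.19 ± 0.05 (adjusted p = 5.3e-26), and was the lowest of 3993 strains tested in that query, of which 73 (1.83%) were lower. COX6 followed with -3.85, ARO1 with -3.58 and LOS1, a tRNA export receptor, with -3.50. GCD6 was lower with either screen left out, with a fit that contained the reference pool (-4.01, adjusted p = 7.26e-19) and under every other setting tried.

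GCD2, the δ subunit, was lower in the RIT1 query as well. It had -1.24 and -2.52, a mean of -1.88 ± 0.90 (adjusted p = 3.47e-16), rank 21 from the lowest. It was the only lower or higher call of GCD2 among 136 queries. Without its second screen the value was -1.24 with an adjusted p of 0.0909, where the remaining screen is assumed to vary like those of other queries. GCD1 had -1.83 and -0.37 there and was not called (adjusted p = 0.171). SUI2 had -0.44 and 0.22 (adjusted p = 0.99) and SUI3 -0.36 and -0.89 (adjusted p = 0.691). GCD11 and GCD7 had 1 screen each, at 0.12 and 0.15.

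GCD6 had 3 further lower queries, each smaller. In the ISW2 query (a chromatin remodelling ATPase) it had -0.73 and -2.72 (adjusted p = 4.27e-06). In the SXM1 query it had -1.66, -0.54, -1.12 and -1.34 (-1.17 ± 0.47, n = 4, adjusted p = 1.25e-05). In the RAT1 query it had -2.19 and -0.35 (adjusted p = 0.0017). All 8 values were below 0, and ISW2 and RAT1 each rested mainly on 1 screen: without the lower screen the values were -0.73 (adjusted p = 0.316) and -0.35 (adjusted p = 0.804).

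The strain labelled GCD1 had 4 lower queries. It had -1.23 and -3.16 in the LYS9 query, a lysine synthesis enzyme (adjusted p = 0.000217), and -3.29 and -1.06 in the NPR3 query (adjusted p = 0.000262). Without a filter on features, which adds a feature present on 38 arrays, the NPR3 value turned to 0.0306 (adjusted p = 0.992). SUI3, by contrast, was higher in the LYS9 query, with 1.67 and 2.05 (adjusted p = 0.0123), a query named after its values were seen. In the OPI1 query, a repressor of phospholipid synthesis genes, GCD1 had -1.69 and -1.98 (adjusted p = 0.00333). In the GIM4 query (prefoldin) it had -0.19 and -2.58 (adjusted p = 0.0492), and without the lower screen it had -0.19 (adjusted p = 1). With 1 screen left, LYS9 at -1.23 (adjusted p = 0.338), NPR3 at -1.06 (0.681) and OPI1 at -1.69 and -1.98 (0.131 and 0.173) were not called either.

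The GCD1 values moved with the reference pool. In the 6 queries that shared the pool pair of NPR3 it averaged -1.18 ± 0.56 and was below 0 in all 6, against -0.06 ± 0.46 in the other 141. With the reference pool as a term the LYS9 and NPR3 values were -0.70 (adjusted p = 0.29) and -0.91 (adjusted p = 0.135), and neither was called. After subtraction of the pool median LYS9 had -0.94 (adjusted p = 0.0205), below the size threshold, and NPR3 had -1.10 (adjusted p = 0.00376) and was still lower. The OPI1 value, from other pools, was -2.18 (adjusted p = 2.79e-06). One OPI1 array was among those whose sign was turned by linkage, and with signs as deposited the OPI1 value was -0.15 (adjusted p = 0.977).

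NPR3 and OPI1 are neighbours in the genome, 4 genes apart, and the OCA5 query lies 6 genes from NPR3. The OCA5 query was chosen after its values were seen. GCD1 had -0.73 in the single OCA5 screen measured, SUI2 -2.38 and SUI3 -1.38. In the OPI1 query SUI2 had -2.21 and -2.22 (adjusted p = 0.214) and SUI3 -1.19 and -1.86 (adjusted p = 0.061). The 3 strains were thus below 0 in every measured screen of these 3 neighbouring queries, with the sign of the OPI1 array turned. The share of all strains below 0 in these screens was not determined, and 11.8% of 4038 strains were lower in the NPR3 query. In the YHI9 query, 65 genes from NPR3, GCD1, SUI2 and SUI3 averaged 0.41, -0.09 and -0.25. Whether the shared position plays a part was not tested.

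GCD11 and GCD7, the γ subunit of eIF2 and the β subunit of eIF2B, were lower mainly in queries of 1 pair of reference pools. That pair served 13 queries and no others, among them PIN4, YCL001W-A, YLR177W, OTU1, NUC1, EPS1 and TAT2. GCD11 averaged -1.44 ± 1.48 over these 13, against -0.01 ± 1.04 over 126 others, and 7 of its 9 lower calls lay there. GCD7 averaged -0.96 ± 1.28 over 11 of them, against 0.16 ± 0.92 over 103 others, with all 3 of its lower calls there. Only 46 queries were tested for GCD7. Its lowest value, -2.18 in 1 screen of SXM1 outside the pair, was not tested. GCD11 was also lower outside the pair in SSU72, at -1.96 and -2.38 (adjusted p = 0.0158). In PAN2 it had -0.71 and -3.39 (adjusted p = 0.0253). After subtraction of the pool median both were lower, at -2.39 (adjusted p = 0.000531) and -1.79 (adjusted p = 0.0185). With the reference pool as a term neither was called (adjusted p = 0.0512 and 0.16). SUI3 was lower in SSU72 too, with -2.62 and -2.02 (adjusted p = 0.000718). These pairs were named after their values were seen. Query and reference pool cannot be told apart in these 13 queries. SUI2 and SUI3 had medians of 0.09 and 0.10 in the same queries.

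The lowest of them for GCD11 was YCL001W-A, with -2.67 and -3.99 (adjusted p = 3.18e-05), rank 2 from the lowest of 4150 strains. YLR177W had -2.10 and -3.34 for GCD11 (adjusted p = 0.00109) and -1.36 and -2.24 for GCD7 (adjusted p = 0.0369). For GCD11, OTU1 gave -1.59 and -3.31 (adjusted p = 0.00444) and NUC1 -2.04 and -2.73 (adjusted p = 0.00592). EPS1, a protein disulfide isomerase of the endoplasmic reticulum, gave -1.24 and -2.91 for GCD7 (adjusted p = 0.0119). Once the median of each reference pool was subtracted, none of these was called: the 7 GCD11 values lay between -1.39 and 0.00, and the 3 GCD7 values between -0.80 and -0.53.

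**Figure D4:**
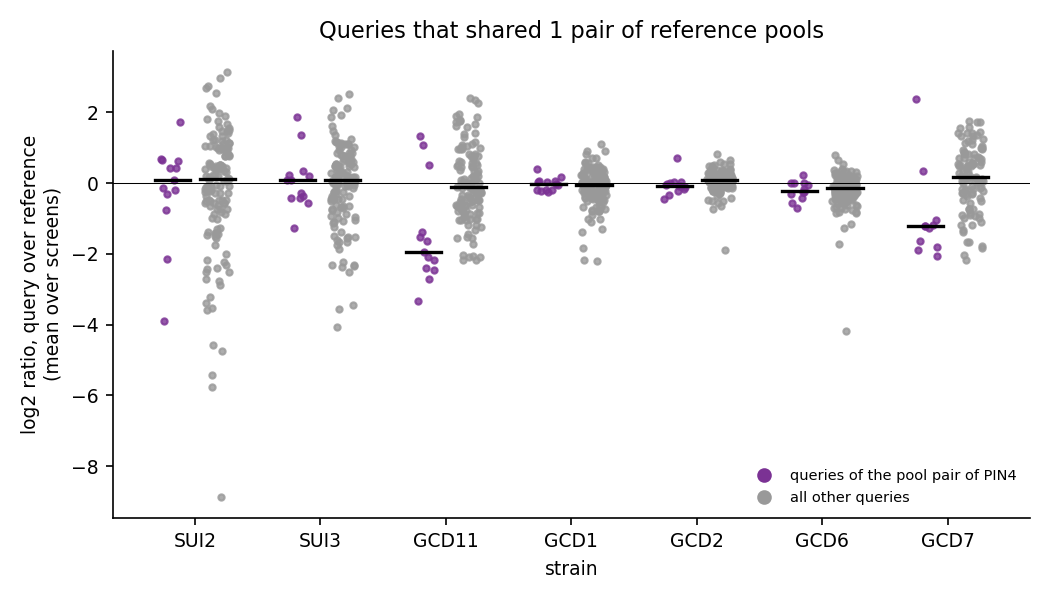
Log2 ratio (vertical axis, mean over screens) of the 7 strains in the 13 queries that used the reference pool pair of PIN4 (purple, left) and in all other queries (grey, right), with 1 point per query and a bar at the median. GCD11 and GCD7 sit at medians of -1.94 and -1.21 in those queries, while the other 5 strains have medians from -0.21 to 0.10 there.

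The kinase GCN2 belonged to the same 13 queries, and there GCD7 was on the other side, as was 1 screen of GCD11. GCD7 had 1.43 and 3.36 in the GCN2 query (adjusted p = 0.00258), with a value of 3.67 after subtraction of the pool median (adjusted p = 9.31e-09). GCD11 had -0.06 and 2.75 and was not called (adjusted p = 0.239), and after that subtraction it was higher at 3.29 (adjusted p = 7.29e-07). GCD2 had 0.60 and 0.84, which passed the p threshold but not the size (adjusted p = 0.00547). SUI2 had 1.49 and 1.99 (adjusted p = 0.413), SUI3 0.91 and 1.79 (adjusted p = 0.122) and GCD1 0.20 and 0.60 (adjusted p = 0.825). The same subtraction raised other queries of the 13, as GCD11 was then higher in SRO9 (3.01, adjusted p = 6.32e-06) and HCR1 (2.46, adjusted p = 0.000344) and GCD7 in SRO9 (1.61, adjusted p = 0.0158), where SRO9 was chosen after its values were seen. GCD6 lies 74 genes from GCN2 and was not tested, and had 0.47 and 0.63. Of the 14 screen values of the 7 strains in the GCN2 query, linked GCD6 included, 13 were above 0. The share of all strains above 0 there was not determined, and of 6 tested members only GCD7 was called before the subtraction. In that query 6.32% of all strains were higher.

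The other higher calls of GCD11 and GCD7 lay outside that pool pair. GCD11 had 3.41 and 1.42 in the query of RPN10, a ubiquitin receptor of the proteasome (adjusted p = 0.00508), and 2.93 and 1.62 in that of PRE9, a proteasome core subunit (adjusted p = 0.00991). It had 2.01 and 1.93 in the query of NAM7, the helicase of nonsense-mediated decay (adjusted p = 0.035), and 1.85 and 1.94 in that of UBP6 (adjusted p = 0.0464). SUI3 was lower in both of the last queries, with -1.77 and -1.94 in NAM7 (adjusted p = 0.0126). GCD7 had 1.99 and 1.46 in the NOP1 query (adjusted p = 0.0488) and 2.91 and 0.54 in that of the ubiquitin ligase TOM1 (adjusted p = 0.049). With the reference pool as a term these 6 values were 1.83 in RPN10, 1.68 in PRE9, 2.25 in NAM7 and 1.81 in UBP6 for GCD11, and 1.85 in NOP1 and 1.89 in TOM1 for GCD7. Their adjusted p then ran from 0.0835 to 0.529, so the calls were lost, while NAM7, TOM1 and NOP1 had larger values than before. After subtraction of the pool median the 4 calls of GCD11 remained (adjusted p from 0.00367 to 0.0424), as did GCD7 in TOM1 (1.83, adjusted p = 0.00427), while GCD7 in NOP1 had 0.82 (adjusted p = 0.432). The fifth higher call of GCD11, TRM9, at 2.65 and 1.11 (adjusted p = 0.0489), kept its call with the pool as a term (adjusted p = 0.0204). SUI3 was higher in TRM9 as well, with 1.86 and 2.00 (adjusted p = 0.00843), a pair named after its values were seen.

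In the queries of GCN4 and of HCR1, the loosely bound j subunit of eIF3, no member was called, where 3.76% and 4.73% of all strains were. In the GCN4 query GCD7 had 1.82 and 1.01 (adjusted p = 0.141), GCD2 0.93 and 0.16 (adjusted p = 0.0607) and SUI3 -1.32 and 0.02 (adjusted p = 0.669). The means of SUI2, GCD1 and GCD6 there were 0.07, -0.23 and -0.20, and GCD11 was linked at 38 genes. In the HCR1 query SUI3 had -1.15 and -1.37 (adjusted p = 0.167), with means of 0.67 for SUI2, 0.52 for GCD11 before that subtraction, -0.20 for GCD1, -0.04 for GCD2 and 0.01 for GCD6. GCD7 lies 100 genes from HCR1 and was not tested there. A missed threshold does not show that these strains were unaffected.

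Each strain was next compared between 8 classes of queries with a shared function and all other queries, again with limma and adjustment over all strains and classes. Of 40 comparisons of the 5 well-covered strains, 2 were called, while 2.32% of all 33000 comparisons were. GCD6 was lower in the queries of general control and initiation, with a class mean of -1.46 ± 2.37 (SD, n = 3 queries, GCN2 being linked) against -0.18 ± 0.36 (n = 146), a difference of -1.29 (adjusted p = 0.000286 by limma). Of all strains, 0.824% were called for that class. The difference rests on RIT1: without that query it was 0.08 (adjusted p = 0.934).

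GCD1 was lower in queries of amino acid supply and signalling, at -0.82 ± 1.06 (n = 6) against -0.08 ± 0.46 (n = 141), a difference of -0.75 (adjusted p = 0.0102 by limma), where 0.412% of all strains were called. It was below 0 in 5 of the 6 queries. Without LYS9 the difference was -0.47 (adjusted p = 0.229), without NPR3 it was -0.48 (adjusted p = 0.224), and with the reference pool as a term it was -0.52 (adjusted p = 0.296). SUI2 and SUI3 had their lowest class means in nuclear RNA processing, -1.81 ± 2.03 and -1.02 ± 1.01 (n = 9 each) against -0.09 ± 1.70 (n = 141) and 0.02 ± 1.10 (n = 140), and were not called (adjusted p = 0.064 and 0.0895 by limma), where 3.3% of all strains were called. In proteasome queries they had -1.36 ± 1.92 (n = 12) and -0.84 ± 1.63 (n = 11), also not called (adjusted p = 0.156 and 0.145 by limma), while GCD11 had 0.62 ± 1.35 (n = 12, adjusted p = 0.152 by limma), in a class for which 9.89% of all strains were called.

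In snoRNP queries SUI2 averaged 0.47 ± 1.06 and SUI3 0.36 ± 0.89 (n = 20 each), and in tRNA modification queries 1.00 ± 1.58 (n = 7) and 0.94 ± 1.34 (n = 6), none of them called (adjusted p = 0.356, 0.399, 0.35 and 0.217 by limma). With the reference pool as a term, 5 class comparisons were called, where the share over all strains and classes was 2.7%. The GCD6 call in general control and initiation was among them at -2.01 (adjusted p = 7.42e-06), from 2 queries with a class SD of 2.59. RIT1 was 1 of these 2 queries. GCD6 was then also lower in tRNA modification (-0.66, adjusted p = 0.0387), a class that also holds RIT1. SUI2 and SUI3 were higher in snoRNP queries (1.68 and 1.15, adjusted p = 0.0208 and 0.00692), and SUI2 was lower in nuclear RNA processing (-2.75, adjusted p = 0.00513). Its mean in that last class was then -2.50 ± 3.01 (n = 9). The class holds RNT1 (-5.73 with the pool as a term) and RAT1 (-6.61), whose mean rests on 1 screen. These SUI2 and SUI3 calls were not repeated with each query left out.

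Profiles across queries were compared by Pearson's r between query means, which share reference pools and arrays, and r is given as a description. SUI2 and SUI3 correlated with r = 0.73 (145 queries), and 0.71 without the 2 queries farthest from the SUI2 median. GCD2 and GCD6 were each other's most similar strain, with r = 0.54 (145 queries), but this fell to 0.28 without RIT1. GCD11 and GCD7 were also each other's most similar strain, with r = 0.66 (107 queries) and 0.63 after the median of each pool was subtracted. All other pairs among the 7 lay between -0.15 and 0.35. Without RIT1, the r of GCD2 and GCD6 thus lay within that range.

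**Figure D5:**
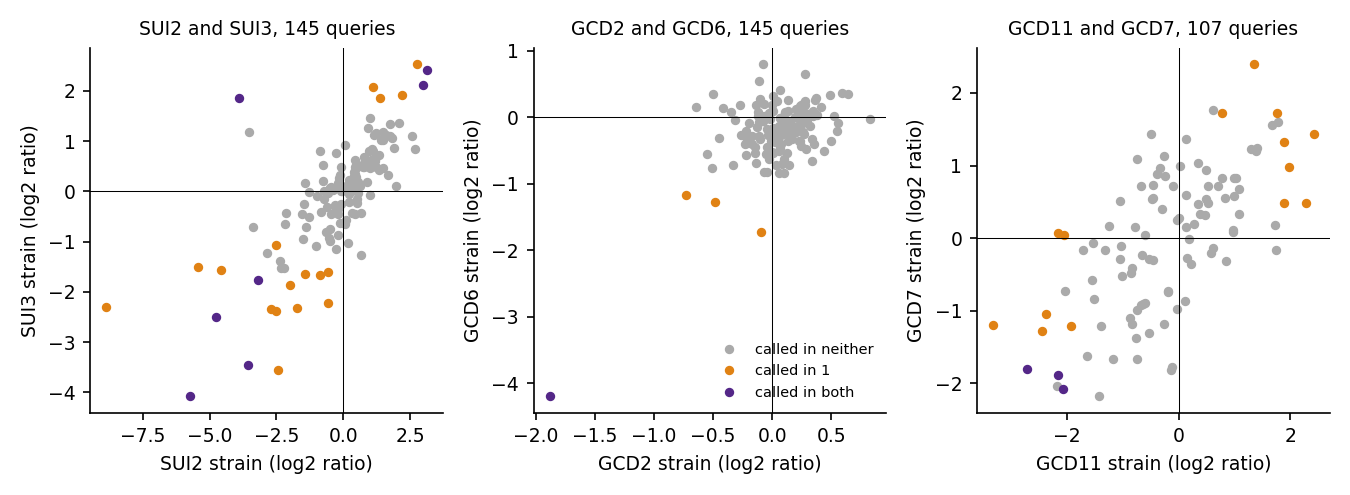
Log2 ratio (mean over screens) of SUI3 against SUI2, GCD6 against GCD2, and GCD7 against GCD11, with 1 point per query unlinked to either strain. Orange points were called in 1 strain and purple points in both. SUI2 and SUI3 vary together except in a few queries such as PIN4, the GCD2 and GCD6 relation depends on RIT1 at the lower left, and GCD11 and GCD7 vary together over their whole range.

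For SUI3 the most similar strains were not of eIF2 but NMD2 (r = 0.92, 143 queries) and UPF3 (r = 0.88, 145 queries), both of nonsense-mediated mRNA decay, and ARP2 of the actin-nucleating complex (r = 0.92, 142 queries). SUI2 ranked 15 in that order. For SUI2 the nearest were the RNA helicase gene SUB2 (r = 0.74), SUI3 and the vacuolar sorting gene PEP7 (r = 0.72). For these 2 strains high r was common, as the 95th percentile over all strains was 0.51 for SUI2 and 0.58 for SUI3, against 0.15 for GCD6. GCD11 came next to NOP56 (r = 0.62) and the RNA polymerase subunit RPC40 (r = 0.61) after GCD7. GCD7 came next to RPC34 (r = 0.63) and the tryptophanyl-tRNA synthetase gene WRS1 (r = 0.61), and RPC34, of RNA polymerase III, was also second for GCD2 (r = 0.51), before RPP1 of RNase P (r = 0.44). After GCD2, GCD6 was most like DBR1 (r = 0.39) and GAT1 (r = 0.37). DBR1 was itself low in the RIT1 query, at -3.44, and these r were not computed without RIT1. GCD1 was most like RPB11 (r = 0.65), FBA1 (r = 0.56) and MED11 (r = 0.56). After subtraction of the pool median these were 0.51, 0.40 and 0.475. The r of GCD7 with RPC34 and WRS1 was then 0.61 and 0.49.

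The other genes of the pathway give the setting for these counts. Of 7 general control genes, 5 had strains with well-covered features, and 12 of 658 pairs were lower and 12 higher. GCN3, the α subunit of eIF2B, had 4 lower and 1 higher of 135, and was lower in the GCN4 query at -1.44 (adjusted p = 0.0396), while its value in the RIT1 query was -0.41 (adjusted p = 0.819). Of 26 other initiation factor genes, 15 were measured, with 43 lower and 37 higher pairs of 1927. Among these, chosen after its values were seen, the HCR1 strain was lower in RPN4 (-5.21, adjusted p = 4.27e-10) and NPR3 (-3.95, adjusted p = 3.03e-06) and higher in NOP1 (3.31, adjusted p = 0.000149), as SUI2 and SUI3 were, and had -1.17 in CAJ1 (adjusted p = 0.432). Of 6 genes listed under initiator tRNA modification and handling, 5 were measured, with 25 lower and 7 higher pairs of 664. The list also held KRS1, a lysyl-tRNA synthetase gene not specific to initiator tRNA, which had 8 of these lower pairs. In that list LHP1, the yeast La protein, was lower in the RIT1 query at -1.68 (adjusted p = 3.94e-08). The shares of lower pairs were 4.83% for the 5 eIF2 and eIF2B strains, against 1.82%, 2.23% and 3.77% for the 3 lists.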

How the data were processed

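The authors deposited 1 table of values per array feature, taken here as log2 ratios of query (Cy3) over reference (Cy5) as the dyes stand in the labels. The sources used here do not give log base, normalization or sign. Features were named through the platform annotation and gene order through the R64 annotation. Of 5100 symbols, 5098 matched and 64 were updated. Genome build and sequences were not used. Arrays were centred on their median. On 17 arrays of 2 reference pools the median of strains up to 25 genes from the query was positive (1.57 to 3.77), against -5.24 to -0.65 on the others. Those arrays were multiplied by -1. Features on at least 80% of arrays were kept (8632) and averaged per strain, and the 2 arrays of 8 screens were averaged. For GCD11 and GCD7 the limit was 50%, chosen after seeing the data. Pairs within 100 genes were left out.

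Each strain was fitted with limma 3.58.1 (R 4.3.3), with a mean per query, against 0, two-sided, with variances pooled over queries. Adjustment covered 547925 pairs (565946 with the 50% limit) and, for classes, 33000 strain and class comparisons with a minimum difference of 0.5. The closed form of the fit was checked against limma on 207 strains and tested on simulated data. The number of arrays limits precision, since ratios carry no signal over background. Profile r needed at least 100 queries. Pairs are named by rule: per strain up to 4 lowest and 4 highest called queries whose screens share a sign, all strains in the GCN2, GCN4, HCR1, RIT1, NPR3 and TRM112 queries, queries with at least 3 called members, and the 3 most similar strains. Members, lists and rules were chosen with earlier results of these data known. Alternatives changed the sign of arrays, the reference pool, the replicate block, normalization, filter, features, linked window, thresholds and screens. Later additions, chosen after seeing the data, were the 50% limit, subtraction of the median of each reference pool, and leaving out each query of a class.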

Additional observations from a re-analysis of the deposited data

How the results depend on the processing

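The 31 lower and 10 higher calls of the 5 strains changed by at most 1.5 times under most settings. Quantile normalization left 19 lower calls, 14 of them shared. The calls without 1 screen of every query numbered from 21 to 23 lower and from 3 to 13 higher, where a lone screen is assumed to vary like those of other queries. With the reference pool as a term there were 31 lower and 15 higher calls, 25 and 8 of them shared. The replicate numbers do not pair the screens, as deviations of 2 queries correlated with a median r of 0.0111 and 24.9% of 8778 such correlations exceeded 0.1. The replicate block gave 27 lower and 9 higher calls.

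The 2 class calls became 5 with the reference pool as a term, where GCD6 in general control and initiation was the 1 shared, 1 with quantile normalization, 1 after subtraction of the pool median, and from 1 to 3 without 1 screen per query. The GCD1 class difference lost its call with the reference pool as a term (-0.52, adjusted p = 0.296), quantile normalization (-0.56), no filter on features (-0.35) and the pool median subtracted (-0.38), and without 1 screen per query, where it ranged from -0.75 to -0.74 (adjusted p = 0.0719 and 0.129). The GCD6 class call held in all of these, but it rests on RIT1, without which the difference in the main fit was 0.08.

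Of 41 called pairs named by the rule, GCD1 in NPR3 changed sign without a filter on features, at 0.0306 (adjusted p = 0.992), where a feature present on 38 arrays entered the mean. Quantile normalization ended 11 of the 26 calls it could test, and leaving out the first or second screen ended 18 and 26 of 41. The causes were not tested. Linked values within 25 genes were the same with signs as deposited and without the turned arrays. The UBC11 query, 78 genes from GCD1, had turned arrays only, so its linked value was not the same. Linked values could not be fitted with the reference pool as a term, since linked pairs are outside that fit.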
